A study of Mus musculus with 2 samples.

Results

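Replication of the genome needs proteins that load and start the replicative helicase, proteins that copy the strands, and enzymes that supply deoxynucleotides. The 37 genes described here were given as a list of symbols covering these steps, and all 37 were found by symbol among the 32285 genes of the deposited feature table. They were followed through 6 pools of mouse skin cells marked by Sox9-CreER, captured together for single-cell 3′ RNA sequencing. Phgdh fl/fl mice gave 3 pools, unwounded and at 3 and 5 days post wounding (dpw), and Phgdh +/+ mice gave 3 pools at the same stages. All mice, in both genotypes, carried Sox9-CreER and R26-LSL-YFP on a background given as C57B6/J, so that Cre driven from Sox9 marks hair follicle cells and their progeny with YFP and, in fl/fl mice, recombines Phgdh. Serine synthesis starts with the Phgdh enzyme, and serine feeds the one-carbon units used to make purines and thymidylate. All cells were sorted as negative for CD140a, CD117, CD31 and CD45, high in integrin-α6 and positive for YFP. Wounded cells had no further gate, while unwounded cells were also gated as CD34+ CD200+ SCA1- bulge stem cells, so each wounded over unwounded comparison also compares the gates. Each pool carried 1 hashtag. The number of animals per pool, their ages, the agent that switched on Cre, the exons floxed, and whether the counted 3′ end of Phgdh lies in them, are not given in the sources used here.

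As background, replication origins are licensed in G1 phase, when Cdc6 and Cdt1 load the ring-shaped MCM helicase onto DNA. At the start of S phase Mcm10, Cdc45 and the GINS complex turn the loaded ring into an active helicase. DNA polymerase α with primase then lays down primers, the clamp loader RFC places the sliding clamp PCNA, and polymerases δ and ε extend the strands. Many of these genes are transcribed under E2F factors around the G1/S transition. Bulge stem cells of the hair follicle are known to be mostly quiescent between hair cycles, and they enter the cycle when the skin is wounded.

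Levels are given in CPM, the UMIs of a gene summed over the cells of a pool, divided by the pool total and scaled to 1000000. The unwounded fl/fl and +/+ pools held 662 and 406 cells, the pools at 3 dpw 523 and 1281 cells, and those at 5 dpw 1434 and 1353 cells. Members together had between 28671 and 77938 UMIs in the wounded pools, against 3269 and 1788 UMIs in the unwounded fl/fl and +/+ pools. Median depth was 36277 to 45701.5 UMIs per cell in the wounded pools, against 7243 and 7174.5 in the unwounded fl/fl and +/+ pools, so folds over unwounded cells are less precise than folds between wounded pools. Phgdh itself stood at 25.2 CPM in unwounded fl/fl cells, 15.3 CPM at 3 dpw and 20.2 CPM at 5 dpw. In +/+ cells it stood at 54.3, 117 and 138 CPM at these stages, so the genotypes were closest in unwounded cells. Summed bulge markers lay between 595 and 1285 CPM in wounded pools and between 16720 and 17901 CPM in unwounded pools, while summed basal keratinocyte markers lay between 30492 and 36508 CPM in wounded and between 11937 and 13308 CPM in unwounded pools. Summed fibroblast markers reached 1.66 CPM in wounded and 32.3 CPM in unwounded pools. Endothelial, myeloid and lymphoid markers stayed at or below 9.48 CPM in all 6 pools, with endothelial Cldn5 at 0. Mural and muscle markers summed to between 28.9 and 56.8 CPM in wounded pools, against 8.64 to 8.90 CPM in unwounded pools. Melanocyte markers differed by pool, with sums of 18.8 (unwounded fl/fl), 14.4 (fl/fl, 5 dpw) and 19.9 CPM (+/+, 5 dpw). Elsewhere their sum was at most 1.60 CPM. The source of these counts was not tested. Cells called female from Xist made up 31.1% of the +/+ pool at 3 dpw and 23.7% at 5 dpw, and no cell was called female in the other 4 pools, where 378 unwounded fl/fl and 197 unwounded +/+ cells had no call, although the labels give both sexes. No test was run, since each condition had 1 pool. All intervals are 95% intervals that cover counting error only and not the difference between animals, and "higher" and "lower" describe these pools. In the pool values alone, more expressing cells and more RNA per cell cannot be told apart.

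The stretch around the start of transcription is shown for 5 members, taken from RefSeq (GRCm38.p6, the assembly behind the mm10 build) as 250 bases before and 50 bases after the start. They were chosen because they hold an E2F-type motif: Mcm3, Mcm5, Cdt1 and Uhrf1 were among the members much higher in wounds, and Pold3 was not. Capitals mark the motifs TTTGGCGC, TTTCGCGC, TTTCCCGC and TTTGCCGC, searched on both strands, so a match on the other strand reads as its reverse complement.
Mcm3, chr1:20820263-20820562 (minus strand): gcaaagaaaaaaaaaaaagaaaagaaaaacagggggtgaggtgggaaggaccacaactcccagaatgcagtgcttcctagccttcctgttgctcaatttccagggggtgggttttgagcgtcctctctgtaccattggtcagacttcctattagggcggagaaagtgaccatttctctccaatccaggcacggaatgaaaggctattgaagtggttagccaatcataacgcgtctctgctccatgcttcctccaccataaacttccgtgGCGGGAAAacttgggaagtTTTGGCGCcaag
Mcm5, chr8:75109259-75109558 (plus strand): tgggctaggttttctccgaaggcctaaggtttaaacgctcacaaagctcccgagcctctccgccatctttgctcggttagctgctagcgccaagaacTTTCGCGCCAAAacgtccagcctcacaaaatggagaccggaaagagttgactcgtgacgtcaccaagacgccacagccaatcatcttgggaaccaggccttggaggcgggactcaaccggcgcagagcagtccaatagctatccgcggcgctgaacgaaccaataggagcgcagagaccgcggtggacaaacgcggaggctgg
Cdt1, chr8:122567765-122568064 (plus strand): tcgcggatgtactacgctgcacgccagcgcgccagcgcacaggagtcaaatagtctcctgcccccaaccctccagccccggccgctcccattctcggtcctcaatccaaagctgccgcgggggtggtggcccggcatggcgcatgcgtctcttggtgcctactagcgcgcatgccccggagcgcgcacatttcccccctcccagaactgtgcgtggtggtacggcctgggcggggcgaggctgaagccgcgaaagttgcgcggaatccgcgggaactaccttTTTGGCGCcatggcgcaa
Uhrf1, chr17:56304063-56304362 (plus strand): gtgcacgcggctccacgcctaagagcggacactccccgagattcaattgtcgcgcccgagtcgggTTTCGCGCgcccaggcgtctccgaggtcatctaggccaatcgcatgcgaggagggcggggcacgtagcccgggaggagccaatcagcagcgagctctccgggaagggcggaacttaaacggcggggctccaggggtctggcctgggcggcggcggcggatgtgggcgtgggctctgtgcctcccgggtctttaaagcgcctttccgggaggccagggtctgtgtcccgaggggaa
Pold3, chr7:100121453-100121752 (minus strand): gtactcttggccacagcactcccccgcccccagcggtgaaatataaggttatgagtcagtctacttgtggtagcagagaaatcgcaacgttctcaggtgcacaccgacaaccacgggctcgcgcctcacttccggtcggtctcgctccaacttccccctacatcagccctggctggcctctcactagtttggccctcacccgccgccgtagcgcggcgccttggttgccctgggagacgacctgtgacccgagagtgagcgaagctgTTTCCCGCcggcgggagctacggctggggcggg
In Mcm5 a TTTCGCGC match overlaps a TTTGGCGC match of the other strand, which gives 1 run of capitals. RefSeq gives Uhrf1 2 starts, and the stretch shown is that of the start with a match. Stretches were available for 30 of the 37 members, 3 of them (Uhrf1, Mcm7 and Pold2) with 2 starts, of which either counted as a match. Which start skin cells use was not tested. At least 1 of the 4 E2F-type motifs was present in 12 of the 30 (40.0%), against 704 of 27025 genes (2.6%). The CCAAT box was present on either strand in 19 of 30 members (63.3%) and in 41.1% of all genes. The G2/M-type element TTTGAA was present in 4 of 30 members (13.3%) and in 20.2% of all genes. Among members at least 2-fold higher at 3 dpw in both genotypes, 7 of the 17 with a stretch held an E2F-type motif, and 5 of the other 13 did. A match is a description of the letters and not a site.

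The 37 genes were together higher in wounded than in unwounded cells in both genotypes. Their summed level was 633, 1289 and 1099 CPM in fl/fl cells that were unwounded, at 3 dpw and at 5 dpw, and 552, 1203 and 1065 CPM in +/+ cells at these stages. Over unwounded fl/fl cells the summed log2 fold was 1.03 (0.97 to 1.08) at 3 dpw and 0.80 (0.75 to 0.85) at 5 dpw. Over unwounded +/+ cells it was 1.12 (1.06 to 1.19) and 0.95 (0.88 to 1.02). In fl/fl cells 28 of 37 members were at least 1.5-fold higher at 3 dpw and 24 of 37 at 5 dpw, against 21.6% and 21.8% of the 10045 genes averaging 5 CPM or more. In +/+ cells 28 and 26 of 37 were, against 21.1% and 20.2% of those genes. No member was 1.5-fold lower, where 38.6%, 38.9%, 38.7% and 39.5% of genes were in the same 4 comparisons. The comparisons at 3 and 5 dpw share the unwounded pool of their genotype. The median log2 fold of the members was 1.16 and 0.83 in fl/fl cells and 1.33 and 1.21 in +/+ cells at 3 and 5 dpw, beside medians of all genes between -0.28 and -0.24. TMM factors moved all wounded over unwounded log2 folds up by 0.53 to 0.60, the median of all genes included, so the median of the members at 5 dpw in fl/fl cells became 1.39. Of the 37 members, 34 had a mean of at least 5 CPM, and the other 3 (Mcm10, Cdc6 and Gins3) are included in the counts.

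**Figure D1:**
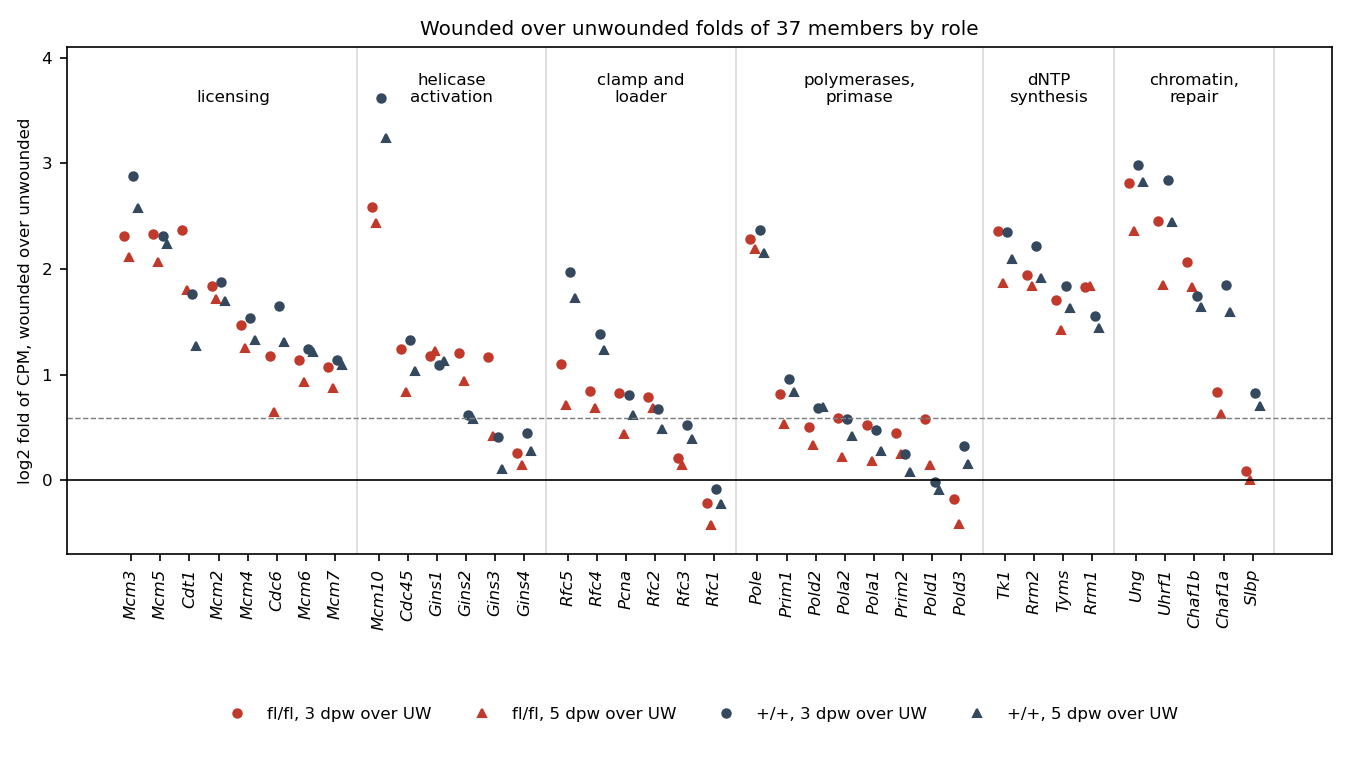
Log2 fold of CPM, wounded over unwounded, for each of the 37 members, grouped by role and ordered within a role by the mean fold at 3 dpw. Circles are 3 dpw and triangles 5 dpw, in fl/fl (red) and +/+ (dark) cells, and the dashed line marks 1.5-fold. Licensing and deoxynucleotide genes lie above the dashed line throughout, and most polymerase and primase genes lie near or below it.

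The folds were not even across roles. All 8 licensing genes and all 4 deoxynucleotide synthesis genes were at least 1.5-fold higher in each wounded pool than in unwounded cells. Median log2 folds of the licensing genes were 1.65 and 1.49 in fl/fl cells at 3 and 5 dpw and 1.70 and 1.32 in +/+ cells. Those of the deoxynucleotide genes were 1.89 and 1.84 in fl/fl cells and 2.03 and 1.78 in +/+ cells. The 8 polymerase and primase genes had the lowest medians of the 6 roles, 0.55 and 0.23 in fl/fl cells and 0.53 and 0.34 in +/+ cells, with 3, 1, 3 and 3 of 8 members past 1.5-fold. At 3 dpw 20 members were at least 2-fold higher in both genotypes. With each genotype taken alone, 13.1% of genes in fl/fl and 12.6% in +/+ cells were, so at most 12.6% were in both. Another 7 members were within 1.5-fold in both (Gins4, Rfc1, Rfc3, Pola1, Pold1, Pold3 and Prim2), where 33.8% of genes were. With TMM factors these counts became 29 and 1, the 1 being Rfc1. Those factors moved the median of all genes at 3 dpw to 0.28 in fl/fl and 0.32 in +/+ cells. The shares of genes just given therefore do not apply to the counts with TMM factors. These pools are separate in the 2 genotypes, and over the 37 members the log2 folds had Pearson's r = 0.89 and Spearman's rho = 0.87 at 3 dpw and r = 0.90 and rho = 0.90 at 5 dpw. These values are a description over genes, which are not independent.

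Licensing genes build the helicase ring. Mcm3, a subunit of the ring, stood at 9.87, 49.0 and 42.6 CPM in fl/fl cells that were unwounded, at 3 dpw and at 5 dpw, and at 5.86, 43.1 and 35.0 CPM in +/+ cells. Its log2 fold at 3 dpw was 2.31 (1.91 to 2.75) in fl/fl and 2.88 (2.23 to 3.61) in +/+ cells, the highest of the ring subunits in +/+ cells. Mcm5, another subunit, was measured at 9.68, 48.6 and 40.4 CPM in fl/fl cells and 8.02, 39.7 and 37.9 CPM in +/+ cells. For both genes every wounded pool lay above both unwounded pools, by log2 folds of 2.06 to 2.88 over the same genotype. Mcm2 reached 24.2 and 22.3 CPM in fl/fl wounds at 3 and 5 dpw, against 6.77 CPM in unwounded fl/fl cells, and 22.6 and 19.9 CPM in +/+ wounds, against 6.17 CPM in unwounded +/+ cells. Mcm6 had 17.4, 38.3 and 33.2 CPM in fl/fl cells and 14.8, 34.9 and 34.3 CPM in +/+ cells, a smaller difference than that of Mcm3, with log2 folds of 0.93 to 1.24. The loading factor Cdt1 stood at 3.10, 16.0 and 10.8 CPM in fl/fl cells and 4.01, 13.6 and 9.65 CPM in +/+ cells, and it was among the members with the lowest 5 dpw over 3 dpw fold in both genotypes. Mcm4 and Mcm7 had log2 folds between 0.88 and 1.53. Cdc6, the partner of Cdt1 in loading, had 10 and 4 UMIs in the unwounded fl/fl and +/+ pools, and its log2 fold of 1.17 (0.23 to 2.28) in fl/fl and 1.65 (0.27 to 3.54) in +/+ cells at 3 dpw is accordingly imprecise.

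Genes of helicase activation were split. Mcm10, a factor needed to start unwinding, had the highest or second highest log2 fold of all members in each wounded over unwounded comparison. It stood at 1.16, 6.97 and 6.27 CPM in fl/fl cells and at 0.617, 7.56 and 5.82 CPM in +/+ cells, the unwounded values resting on 6 and 2 UMIs. Its log2 fold at 3 dpw was 2.58 (1.43 to 4.05) in fl/fl and 3.61 (1.75 to 6.67) in +/+ cells. Cdc45, which travels with the ring, had log2 folds of 0.83 to 1.33. The 4 subunits of GINS are given singly, and differences between them were not tested. Gins1 was at 5.999, 13.5 and 14.04 CPM in fl/fl cells and 5.86, 12.5 and 12.8 CPM in +/+ cells, about as high at 5 dpw as at 3 dpw. Gins4 had 18.4, 22.0 and 20.4 CPM in fl/fl cells and 17.9, 24.4 and 21.7 CPM in +/+ cells, within 1.5-fold at both days. Gins2 gave 8.32, 19.2 and 16.0 CPM in fl/fl cells and 12.0, 18.4 and 18.0 CPM in +/+ cells, with a lower unwounded level in fl/fl than in +/+ cells on 43 and 39 UMIs. Gins3 lay at 2.13, 4.76 and 2.85 CPM in fl/fl cells and 3.39, 4.51 and 3.65 CPM in +/+ cells, the unwounded values resting on 11 UMIs in each genotype.

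The sliding clamp Pcna, which tethers polymerases to DNA, stood at 64.8, 115 and 87.9 CPM in fl/fl cells and 56.5, 98.8 and 86.5 CPM in +/+ cells. Its log2 fold over unwounded cells was 0.82 (0.66 to 0.99) and 0.44 (0.28 to 0.60) in fl/fl cells at 3 and 5 dpw, and 0.81 (0.59 to 1.03) and 0.62 (0.40 to 0.84) in +/+ cells. Wounded pools were thus above unwounded ones by less than for most ring subunits. The subunits of the clamp loader ran from the lowest fold of all members to folds above that of Pcna. Rfc5, a small subunit, had 14.3, 30.6 and 23.5 CPM in fl/fl cells and 6.79, 26.5 and 22.4 CPM in +/+ cells. Rfc1, the large subunit, had 73.5, 63.4 and 54.7 CPM in fl/fl cells and 66.0, 62.3 and 56.3 CPM in +/+ cells. Its log2 folds at 3 and 5 dpw were -0.21 (-0.38 to -0.05) and -0.43 (-0.58 to -0.27) in fl/fl and -0.08 (-0.28 to 0.12) and -0.23 (-0.43 to -0.02) in +/+ cells, and with TMM factors they were 0.32, 0.14, 0.47 and 0.37, so the direction rests on the scaling. It was the lowest member in all 4 comparisons. Rfc2 was at 30.6, 52.9 and 49.0 CPM in fl/fl cells and 34.2, 54.8 and 48.0 CPM in +/+ cells. Rfc3 was within 1.5-fold at both days, at 24.4, 28.2 and 26.9 CPM in fl/fl cells and 19.7, 28.3 and 25.9 CPM in +/+ cells. Rfc4 had log2 folds of 0.84 and 0.68 in fl/fl and 1.39 and 1.23 in +/+ cells at 3 and 5 dpw.

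Among the polymerases, Pole stood out, the catalytic subunit of the polymerase that copies the leading strand. It had 2.90, 14.1 and 13.2 CPM in fl/fl cells and 2.78, 14.3 and 12.3 CPM in +/+ cells, and its log2 folds of 2.15 to 2.37 were the only ones of the 8 genes past 2-fold. The catalytic subunit of polymerase δ, Pold1, had 6.58, 9.84 and 7.25 CPM in fl/fl cells and 8.33, 8.24 and 7.83 CPM in +/+ cells, with a log2 fold of -0.02 (-0.58 to 0.60) in +/+ cells at 3 dpw. Its partner Pold3 had 24.4, 21.6 and 18.3 CPM in fl/fl cells and 16.4, 20.4 and 18.2 CPM in +/+ cells, so that the fl/fl pools were lower in wounds and the +/+ pools were not. In fl/fl cells its log2 folds were -0.18 (-0.46 to 0.12) and -0.41 (-0.68 to -0.14) at 3 and 5 dpw, and 0.36 and 0.15 with TMM factors. Pold2, the small accessory subunit, stood at 17.6, 24.99 and 22.1 CPM in fl/fl cells and 13.6, 21.9 and 22.0 CPM in +/+ cells. Prim2, a primase subunit, had 20.9, 28.5 and 24.8 CPM in fl/fl cells and 24.7, 29.2 and 26.1 CPM in +/+ cells, and its partner Prim1 had log2 folds between 0.53 and 0.96. Pola1 and Pola2, of polymerase α, had log2 folds between 0.18 and 0.59.

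The deoxynucleotide enzymes were high in every wounded pool, as the plot of levels by stage shows. Rrm2, the regulated subunit of ribonucleotide reductase, stood at 23.8, 91.6 and 85.0 CPM in fl/fl cells and 17.9, 83.0 and 67.6 CPM in +/+ cells. The other subunit, Rrm1, had 22.3, 79.3 and 79.4 CPM in fl/fl cells and 27.2, 79.8 and 73.9 CPM in +/+ cells. Both were higher in each wounded pool than in unwounded cells of that genotype, by log2 folds of 1.44 to 2.21. Tyms, which makes thymidylate with a folate cofactor, had 18.4, 59.8 and 49.2 CPM in fl/fl cells and 16.0, 57.4 and 49.8 CPM in +/+ cells. Tk1, the salvage kinase for thymidine, had 9.87, 50.5 and 36.1 CPM in fl/fl cells and 8.64, 43.9 and 36.9 CPM in +/+ cells. Its log2 fold at 3 dpw was 2.36 (1.95 to 2.79) in fl/fl and 2.34 (1.81 to 2.94) in +/+ cells.

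**Figure D2:**
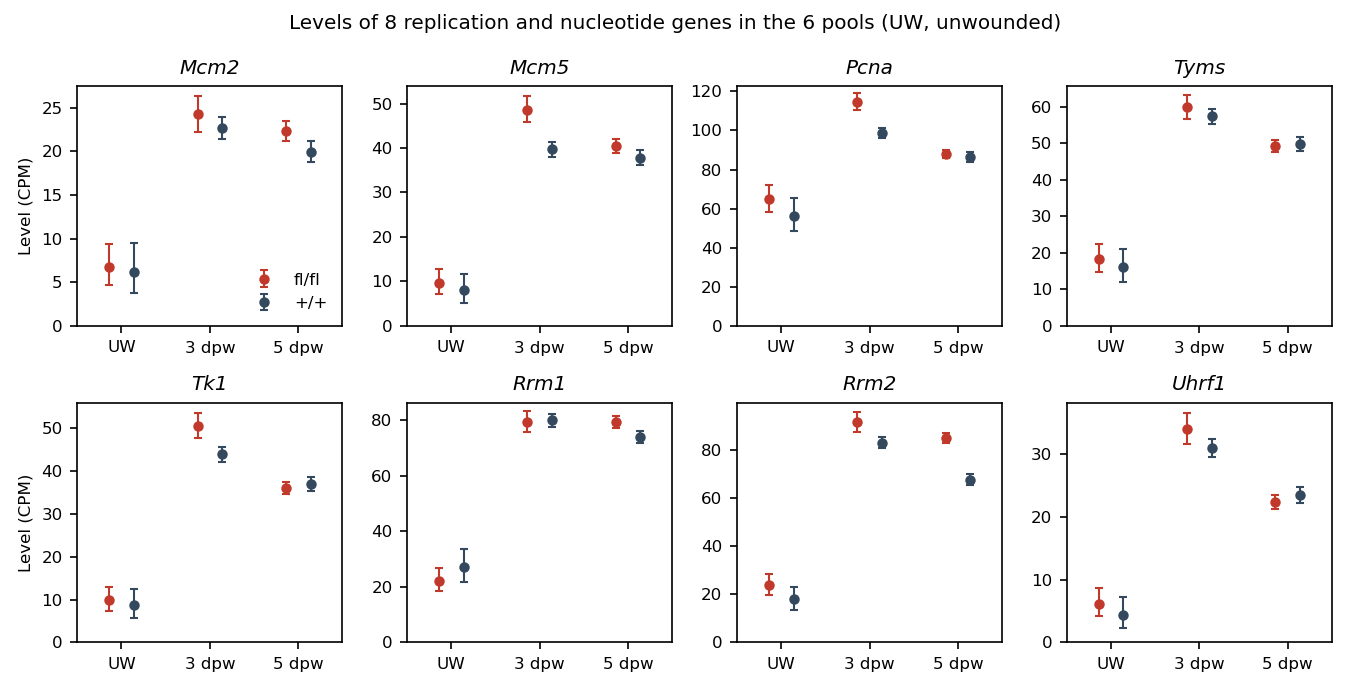
Level (CPM) of 8 members in unwounded cells (UW) and at 3 and 5 dpw, in fl/fl (red, left) and +/+ (dark, right) pools, with exact Poisson 95% intervals of the counts. For each of the 8 genes all 4 wounded pools lie above both unwounded pools, and 5 dpw lies below 3 dpw except for Rrm1 in fl/fl cells, which is level.

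Among the remaining members, Uhrf1, which carries DNA methylation through replication, had 6.19, 34.0 and 22.3 CPM in fl/fl cells and 4.32, 30.9 and 23.4 CPM in +/+ cells. Ung, which removes uracil from DNA, had 1.94, 13.6 and 9.91 CPM in fl/fl cells and 1.54, 12.2 and 10.9 CPM in +/+ cells, with log2 folds of 2.81 (1.91 to 3.89) and 2.98 (1.75 to 4.61) at 3 dpw on 10 and 5 unwounded UMIs. With Mcm10, both were among the 4 highest members at 3 dpw in each genotype. Chaf1a, a subunit of the chromatin assembly factor that places histones behind the fork, had 10.1, 17.9 and 15.6 CPM in fl/fl cells and 4.94, 17.8 and 14.9 CPM in +/+ cells. Its partner Chaf1b had log2 folds of 1.64 to 2.07. Slbp, which binds histone mRNA, had 39.7, 42.2 and 39.7 CPM in fl/fl cells and 23.1, 41.1 and 37.8 CPM in +/+ cells. Its fl/fl levels were close at the 3 stages, with log2 folds of 0.09 (-0.13 to 0.31) and 0.00 (-0.20 to 0.21), or 0.62 and 0.57 with TMM factors.

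From 3 to 5 dpw most members were slightly lower in both genotypes. The summed log2 fold, 5 dpw over 3 dpw, was -0.23 (-0.25 to -0.21) in fl/fl and -0.18 (-0.19 to -0.16) in +/+ cells. In fl/fl cells 35 of 37 members were below 0, against 52.4% of genes, 29 with an interval below 0, against 27.2%. Their median was -0.21 beside -0.01 for all genes, and -0.084 in cells with at most 5% mitochondrial UMIs. In +/+ cells 35 of 37 were below 0, against 60% of genes, 28 with an interval below 0, against 33%, and the median was -0.17 beside -0.04. The differences were small: 2 members, Gins3 and Uhrf1, were 1.5-fold lower in fl/fl cells, against 6.78% of genes, and none in +/+ cells, against 3.42%. No member was 1.5-fold higher, where 2.98% of genes in fl/fl and 1.85% in +/+ cells were. The lowest folds in fl/fl cells were those of Gins3 at -0.74 (-1.09 to -0.39), Uhrf1 at -0.61 (-0.73 to -0.48) and Cdt1 at -0.57 (-0.76 to -0.39). In +/+ cells they were those of Cdt1 at -0.50 (-0.66 to -0.33), Uhrf1 at -0.40 (-0.51 to -0.30) and Mcm10 at -0.38 (-0.59 to -0.16). Members near 0 included Gins1 at 0.05 (-0.13 to 0.24) and Rrm1 at 0.00 (-0.08 to 0.08) in fl/fl cells, and Gins1 at 0.04 (-0.11 to 0.20) and Pold2 at 0.01 (-0.11 to 0.12) in +/+ cells.

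The series asks what loss of Phgdh does to these cells, and in whole wound pools the genotypes differed little in this set of genes. At 3 dpw the summed level was 1289 CPM in fl/fl cells and 1203 CPM in +/+ cells, a log2 fold of 0.10 (0.08 to 0.12), and at 5 dpw it was 1099 and 1065 CPM, a log2 fold of 0.04 (0.03 to 0.06). No member was 1.5-fold higher at either day, against 0.378% and 0.209% of all genes, and none was 1.5-fold lower, against 1.74% and 4.65%. All members lay between log2 folds of -0.15 and 0.29 at 3 dpw and between -0.36 and 0.33 at 5 dpw. The median was 0.10 at 3 dpw beside -0.03 for all genes, and 0.01 at 5 dpw beside 0.00. Since female cells were seen in the +/+ wounds alone, the comparison was repeated in male cells, where the medians were 0.06 and -0.02. Within the +/+ pools the summed level was 1141 CPM in female and 1251 CPM in male cells at 3 dpw, and 878 and 1096 CPM at 5 dpw. The part of sex in the genotype values was not tested beyond these numbers.

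Some single members differed by more than their counting error. At 3 dpw 13 members had an interval above 0, against 10.7% of genes, and 1, Gins4, below it, against 20.1%. Intervals narrow with counts, so these shares also depend on gene level. The highest were Mcm5 at 48.6 CPM in fl/fl cells and 39.7 CPM in +/+ cells, a log2 fold of 0.29 (0.19 to 0.40), Pold1 at 0.26 (0.02 to 0.49) and Cdt1 at 0.23 (0.05 to 0.42). Pcna, at 115 CPM in fl/fl cells and 98.8 CPM in +/+ cells, differed by 0.22 (0.15 to 0.28) on the log2 scale. At 5 dpw 5 members were above 0 (Mcm2, Mcm3, Mcm5, Rrm1 and Rrm2) and 2 were below it (Gins2 and Gins3), against 23.2% and 24.5% of genes. Both shares of members were smaller than those of all genes. Rrm2 was highest, with 85.0 CPM in fl/fl cells and 67.6 CPM in +/+, a log2 fold of 0.33 (0.27 to 0.39), and 0.26 in male cells. Mcm3 followed, with 42.6 CPM in fl/fl cells and 35.0 CPM in +/+, a log2 fold of 0.28 (0.20 to 0.37), or 0.21 in male cells. Gins3 was lowest at -0.36 (-0.65 to -0.07), or -0.16 in male cells, and Gins2 lay at -0.17 (-0.30 to -0.05).

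**Figure D3:**
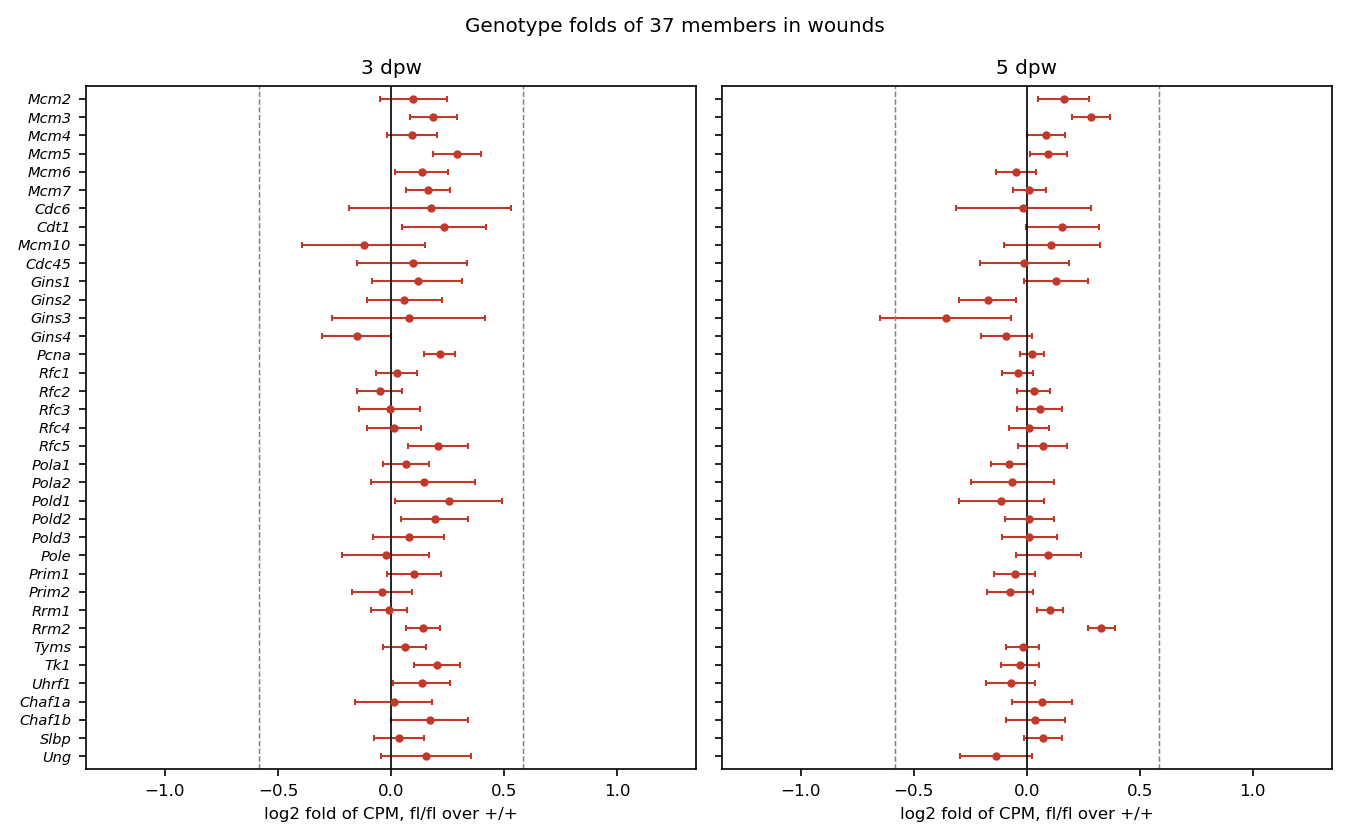
Log2 fold of CPM, fl/fl over +/+, for each of the 37 members at 3 dpw (left) and 5 dpw (right), with exact conditional binomial 95% intervals. Dashed lines mark 1.5-fold in either direction. All points lie between the dashed lines, and Rrm2 and Mcm3 are the highest at 5 dpw.

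In unwounded cells the summed level was 633 CPM in fl/fl cells and 552 CPM in +/+ cells, a log2 fold of 0.20 (0.11 to 0.28). The fold past 1.5 was met by 6 members upward (Rfc5, Chaf1a, Mcm10, Slbp, Mcm3 and Cdc6) and by 1, Gins3, downward, against 2.47% and 4.68% of genes. These 7 became 4 when members averaging under 5 CPM were left out, as they are from the share of genes, and 11 without the highest doublet scores. The share of genes without those scores is not given here. Mcm10 turned to -0.60 and Gins3 to 0.0098 on the log2 scale under a stricter hashtag rule. An interval above 0 was seen in 5 members, Rfc5, Chaf1a, Slbp, Pold3 and Rfc4, against 6.04% of genes. Rfc5 had 14.3 CPM in fl/fl cells and 6.79 CPM in +/+ cells, a log2 fold of 1.08 (0.37 to 1.83) on 74 and 22 UMIs. Slbp had 39.7 CPM in fl/fl cells and 23.1 CPM in +/+ cells, a log2 fold of 0.78 (0.39 to 1.18) on 205 and 75 UMIs. A small number of cells weighed on these pools: the 10 cells richest in member UMIs held 21.05% of them in fl/fl and 21.09% in +/+ cells. Cells outside the bulge-like clusters, 68 in fl/fl and 33 in +/+, held 26.1% and 23.8% of member UMIs. Within the bulge-like clusters alone the summed level was 555 CPM in fl/fl cells and 509 CPM in +/+ cells, a log2 fold of 0.12 (0.03 to 0.22).

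Counts in single cells showed how the level was spread. Each cell was thinned to 3000 UMIs, and cells with at least 3 member UMIs were counted. They made up 24.1% (20.8 to 27.6), 46.7% (42.2 to 51.1) and 43.5% (40.9 to 46.2) of fl/fl cells that were unwounded, at 3 dpw and at 5 dpw, and 18.7% (15.01 to 22.9), 45.7% (42.9 to 48.5) and 41.2% (38.6 to 43.9) of +/+ cells. Without thinning the shares were 71.6%, 95.6% and 98.2% in fl/fl and 65.8%, 96.3% and 95.3% in +/+ cells. With at least 5 member UMIs the thinned shares were 3.13%, 29.9% and 24.8% in fl/fl and 2.78%, 28.7% and 22.9% in +/+ cells. Wounded and unwounded pools thus stood further apart in the share of cells with many member UMIs than in the share with none, which was 17.7%, 17.7% and 18.7% in fl/fl cells and 24.3%, 19.0% and 20.1% in +/+ cells. The cells richest in member UMIs, 10% of each pool, held 27.1% to 36.2% of them. Between genotypes the share with at least 3 UMIs, fl/fl minus +/+, differed by 0.95 points (-4.15 to 6.08) at 3 dpw and 2.30 points (-1.40 to 5.98) at 5 dpw. In unwounded cells it differed by 5.33 points (0.12 to 10.3), but in male cells the shares were 22.1% and 21.3%. Cluster 12, led by the cornified envelope genes Lce3c, Crct1 and Cnfn which cells switch on as they leave the cell cycle and cornify, had a share of 3.33% (0.406 to 11.5) in 60 +/+ cells at 3 dpw with a median of 55190 UMIs, against 40042 UMIs in that whole pool. Free RNA made up 0.517% to 0.635% of the wounded and 3.21% to 3.28% of the unwounded pools.

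**Figure D4:**
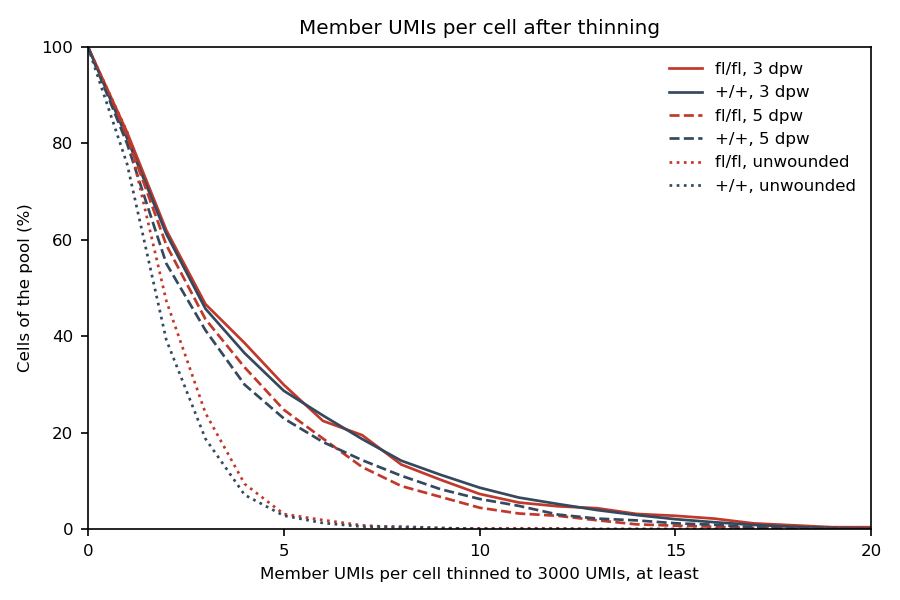
Share of cells (%) in each pool with at least the number of member UMIs on the x axis, after each cell was thinned to 3000 UMIs. Colours give the genotype and line styles the stage. The 4 wounded pools run close together and above both unwounded pools from 2 UMIs on.

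Members were then read along the cell cycle in the wounded pools, by other genes. Cells in the top 10% for a companion list of 44 other replication genes, such as Gmnn, Clspn and Dbf4, were set against cells in neither top group, and likewise cells in the top 10% for 24 G2/M genes. All 37 members were at least 1.5-fold higher in companion-high cells than in the other cells of each of the 4 pools, against 21% and 14.1% of genes in fl/fl cells at 3 and 5 dpw and 21.5% and 15.9% in +/+ cells. In G2/M-high cells 18 and 23 members of fl/fl and 19 and 27 of +/+ pools were, against 17.8%, 8.1%, 13.5% and 8.59% of genes. Companion-high over G2/M-high cells, 28 and 28 members in fl/fl and 32 and 30 in +/+ pools were 1.5-fold higher, against 8.02%, 4.99%, 8.14% and 7.07% of genes. Cdc6 and Ung were low in G2/M-high cells. Cdc6 was at 15.7 CPM in companion-high cells of the fl/fl pool at 3 dpw, 1.20 CPM in G2/M-high and 2.90 CPM in other cells, and at 10.9, 2.54 and 3.22 CPM in the +/+ pool. Ung was at 38.1, 5.99 and 10.5 CPM in these groups of the fl/fl pool and at 47.1, 4.602 and 9.03 CPM in the +/+ pool. Both were lower in G2/M-high than in other cells in all 4 pools, by log2 folds of -1.28 to -0.34 for Cdc6 and -0.998 to -0.74 for Ung. All 4 intervals of Ung lay below 0, and those of Cdc6 included 0 in 3 of the 4 pools, the exception being fl/fl cells at 5 dpw (-2.15 to -0.31). Tk1, Tyms, Rrm1, Rfc5 and Gins3 were instead high in both groups, with log2 folds of 1.07 to 1.69 in G2/M-high over other cells. Tk1 stood at 105 and 107 CPM in companion-high and G2/M-high cells and 33.1 CPM in other cells of the fl/fl pool at 3 dpw, and at 106, 82.0 and 31.8 CPM in the +/+ pool. Uhrf1 and Mcm10 were higher in companion-high than in other cells, by log2 folds of 1.86 to 2.43 and 1.98 to 2.91. Cdc6 was similar in this ratio, at 1.76 to 2.86. Companion-high and G2/M-high groups shared 12 to 33 cells per pool.

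**Figure D5:**
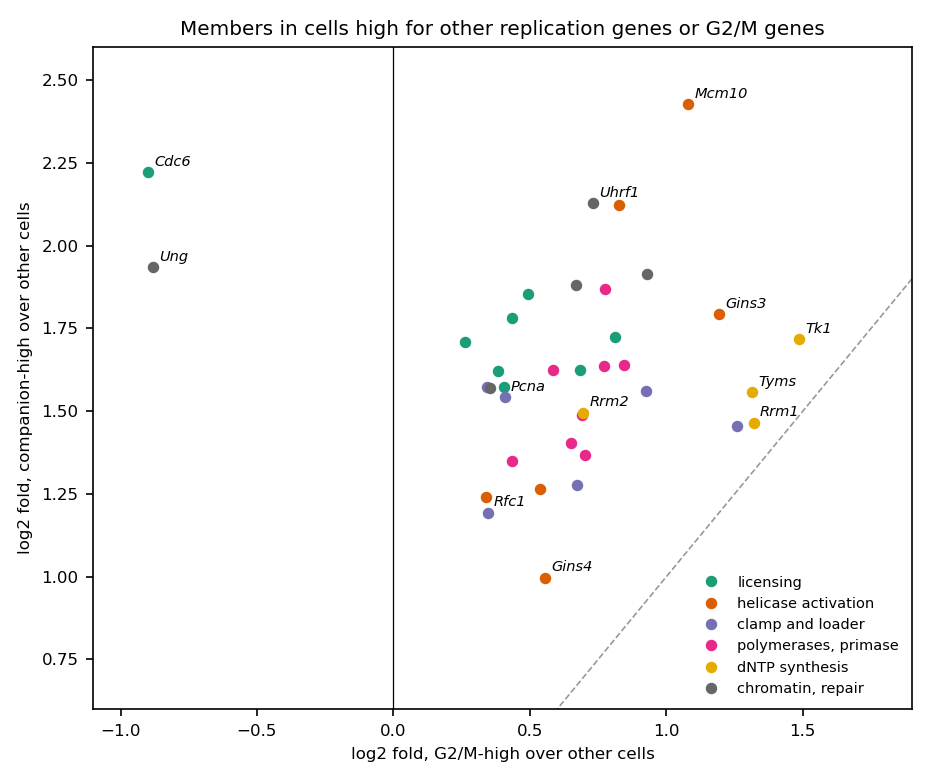
Log2 fold of each member in G2/M-high over other cells (x axis) and in companion-high over other cells (y axis), each the mean of the 4 wounded pools, coloured by role. The dashed line marks equal folds. All members lie above it, Cdc6 and Ung lie left of 0, and Tk1, Tyms and Rrm1 lie farthest right.

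Across thinned single cells, each member was compared with the summed UMIs of the other 36 within a wounded pool. Pearson's r lay between 0.27 and 0.45 for Pcna, between 0.32 and 0.33 for Mcm3 and between 0.30 and 0.33 for Rrm2, and at or below 0.11 for Gins1, Gins3 and Gins4 in all 4 pools. Cells of a pool share 1 library. With few UMIs per gene r also depends on the level of a gene, and the order of the members was not adjusted for it.

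Members varied by cell class. Clusters had been made without the members and without other cycle genes, and a class was compared where it held at least 50 cells. At 3 dpw in +/+ cells the summed level was 2302 CPM in cluster 7, led by Nek6 and Emp3, 1843 CPM in bulge-like, 928 CPM in wound-edge-like, 805 CPM in upper hair follicle-like, 687 CPM in suprabasal-like cells and 287 CPM in cluster 12. Their intervals did not overlap. Rrm2 followed this order only in part, at 154 CPM in cluster 7, 93.0 CPM in wound-edge-like, 90.5 CPM in bulge-like, 44.4 CPM in upper hair follicle-like, 36.3 CPM in suprabasal-like cells and 35.7 CPM in cluster 12. Clusters 10, 5 and 2 lay between bulge-like and wound-edge-like cells, at 1730, 1612 and 1467 CPM. Cluster 7 carries no class name here. Of 6 melanocyte markers 5 were raised in it, and 21 cells in all classes and pools carried at least 3 markers of another cell type.

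Bulge-like cells of wounds had higher member levels than unwounded bulge-like cells. The summed level was 1785 CPM at 3 dpw and 555 CPM unwounded in fl/fl cells, a log2 fold of 1.69 (1.61 to 1.76), and 1843 CPM and 509 CPM in +/+ cells, a log2 fold of 1.86 (1.77 to 1.94). In fl/fl cells 34 of 37 members were at least 1.5-fold higher, against 21.6% of genes, and in +/+ cells 36 were, against 21.2%. Tk1 was at 75.3 CPM in 3 dpw and 3.21 CPM in unwounded bulge-like fl/fl cells, and at 77.6 CPM and 3.74 CPM in +/+ cells. Rfc1 was at 88.2 and 72.8 CPM in the same fl/fl cells and 93.5 and 70.2 CPM in the +/+ cells. Mcm10 had 66 UMIs (13.1 CPM) at 3 dpw and none in unwounded bulge-like +/+ cells, at least 11.7-fold higher when set against the 3 counts (1.12 CPM) that a count of 0 in that class allows. Unwounded bulge-like cells came from clusters 6, 15 and 16 and the wounded ones mostly from cluster 14, and the sort gates differed. In +/+ cells at 5 dpw 95 bulge-like cells had a summed level of 1139 CPM, or 848 CPM with equal weight per cell. Of these 95 cells the top 5 held 41.0% of member UMIs, and the 33 male cells stood at 632 CPM. Against 198 bulge-like cells at 3 dpw, 23 of 37 members were 1.5-fold lower in the 95 cells, where 11.9% of genes were.

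Between genotypes, upper hair follicle-like cells at 5 dpw had the largest difference of the classes compared. Their summed level was 750 CPM in 84 fl/fl cells and 1099 CPM in 109 +/+ cells, a log2 fold of -0.55 (-0.62 to -0.48). In male cells it was -0.59, and with equal weight per cell -0.48. There 19 of 37 members were 1.5-fold lower, against 9.87% of genes, and none was 1.5-fold higher, against 4.55%. Tk1 was at 22.4 CPM in fl/fl cells and 48.3 CPM in +/+ cells, Rrm2 at 35.6 and 62.1 CPM and Pcna at 65.6 and 87.9 CPM. The top 5 cells held 27.8% of member UMIs in fl/fl and 24.5% in +/+ cells, so few cells carry much of each value. At 3 dpw cluster 10, led by Aldh3a1, went the other way. It had 2217 CPM in 51 fl/fl cells and 1730 CPM in 119 +/+ cells, a log2 fold of 0.36 (0.30 to 0.41). This cluster carries no class name here, and 4 of 6 sebaceous markers were raised in it. There 6 members were 1.5-fold higher, against 5.92% of genes, and none 1.5-fold lower, against 11.7%. The top 5 cells there held 33.1% of member UMIs in fl/fl and 16.5% in +/+ cells. Wound-edge-like cells differed less, at 847 CPM in fl/fl cells and 928 CPM in +/+ cells at 3 dpw and 927 and 860 CPM at 5 dpw. Clusters 4 and 5 were also lower in fl/fl cells at 5 dpw, by log2 folds of -0.26 (-0.32 to -0.20) and -0.17 (-0.21 to -0.13). Suprabasal-like and cluster 2 cells lay near 0, with summed log2 folds of 0.08 (0.02 to 0.13) and 0.04 (0.01 to 0.07). Member medians were 0.10 and 0.003 in these 2 classes, beside 0.003 and 0.06 for all genes. With equal weight per cell the summed log2 folds were -0.05 and 0.04. In male cells they were 0.03 (-0.02 to 0.09) and 0.06 (0.02 to 0.09). Cluster 2 made up 20.1% of fl/fl and 10.1% of +/+ cells at 5 dpw. The part of class shares in the pool values was not tested.

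Other genes of the pathway were described from lists set beside the members. Of the 44 companion replication genes, 26 and 24 were at least 1.5-fold higher in fl/fl cells at 3 and 5 dpw and 28 and 24 in +/+ cells, and 5 were 1.5-fold lower in each. The shares of all genes in the 4 comparisons, as above, were 20.2% to 21.8% higher and 38.6% to 39.5% lower. Their median log2 folds were 0.77 and 0.67 in fl/fl and 0.91 and 0.75 in +/+ cells. Gmnn, the inhibitor of Cdt1, stood at 65.9 CPM at 3 dpw and 11.4 CPM unwounded in fl/fl cells, and at 61.9 and 11.1 CPM in +/+ cells. Of the 34 nucleotide and folate genes, 15 and 13 were 1.5-fold higher and 6 and 8 were lower in fl/fl cells, and 16 and 13 higher and 8 and 8 lower in +/+ cells. Here Rrm2b, the reductase subunit used outside S phase, was at 7.73 CPM at 3 dpw and 32.5 CPM unwounded in fl/fl cells and at 8.37 and 37.6 CPM in +/+ cells, opposite to Rrm2. Nme1, a nucleoside diphosphate kinase, was at 540 CPM at 3 dpw and 91.9 CPM unwounded in fl/fl cells and at 518 and 114 CPM in +/+ cells. Of the 16 G1/S regulators 12 and 12 were 1.5-fold higher in fl/fl and 10 and 10 in +/+ cells, with 1 lower in each, and all 24 G2/M genes were higher in all 4 comparisons, with medians of 2.68 to 3.03. Between genotypes at 5 dpw, 16 of 34 nucleotide and folate genes had an interval above 0 and 5 below it, against 23.2% and 24.5% of all genes, with Mthfd2, a mitochondrial folate enzyme, at 25.03 CPM in fl/fl cells and 18.97 CPM in +/+ cells. Of the 24 G2/M genes 18 were above and 1 below, with a median of 0.13, and Ccnd1, a G1 cyclin, was at 133 CPM in fl/fl cells and 101 CPM in +/+ cells.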

How the data were processed

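Single-cell 3′ RNA and hashtag libraries of 1 capture were analysed. The deposited matrix holds UMI counts per gene or hashtag and barcode, for 2997303 barcodes. Per the submitters' processing notes, reads were processed with Cell Ranger 7.1.0, mm10 and Seurat 4.3.0. How reads shared with pseudogene copies or overlapping genes were counted is not given in the sources used here.

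Barcodes with at least 1000 gene UMIs, 500 genes and no more than 10% mitochondrial UMIs stayed (6900). HTODemux (Seurat 5.3.0, R 4.3.3, quantile 0.99) gave 5659 singlets, which were used, 503 doublets and 738 negatives. Doublets within a hashtag stay in the pools, and removing the 126 singlets of highest Scrublet score was an alternative. UMIs were summed per pool and scaled to CPM. Intervals are exact conditional binomial for folds, Poisson for levels, Clopper-Pearson for shares (scipy 1.17.1) and Newcombe for their differences (statsmodels 0.14.6). No test was run. The calculation was checked on simulated counts. Cells were clustered with scanpy 1.11.5 on 2000 variable genes without members and cycle genes. Clusters were named from marker lists. The rule for names was tightened after the data were seen, and sex calls and the removal of cells with at least 3 markers of another type were also chosen then.

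The members and lists were chosen with earlier results of these data known. Named with full values were the 3 highest and 3 lowest members of each comparison and Mcm2, Mcm5, Pcna, Tyms, Tk1, Rrm1, Rrm2 and Uhrf1. Other members, and other examples by cell class, were chosen after their values were seen. Motifs were searched in RefSeq stretches. Alternatives were other cell filters, hashtag rules, equal weight per cell, TMM factors (edgeR 4.0.16), male cells, free RNA subtraction, another fold and other thinning.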

Additional observations from a re-analysis of the deposited data

Results flagged for a closer look

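The genotype difference in summed member level took opposite signs in different cell classes, and these contrasts were not tested. At 3 dpw the log2 fold, fl/fl over +/+, was 0.36 in cluster 10 and -0.13 in wound-edge-like cells. At 5 dpw it was -0.55 in upper hair follicle-like cells and 0.11 in wound-edge-like cells. In male cells these values were 0.42 and -0.05 at 3 dpw and -0.59 and 0.07 at 5 dpw. Summed log2 folds of clusters 4 and 5 were -0.26 and -0.17 at 5 dpw, or -0.26 and -0.31 in male cells. Medians of all genes in wound-edge-like cells had the signs of the members, at -0.084 at 3 dpw and 0.031 at 5 dpw. They were -0.03 in cluster 10 at 3 dpw and -0.06 in upper hair follicle-like cells at 5 dpw.

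The time course did so too. In +/+ cells the log2 fold of the summed members, 5 dpw over 3 dpw, was 0.45 in upper hair follicle-like and -0.69 in bulge-like cells, or 0.60 and -1.60 in male cells. In wound-edge-like cells it was 0.13 in fl/fl and -0.11 in +/+ cells, and in male cells 0.12 and -0.01. The medians of all genes in wound-edge-like cells had the same signs, at 0.075 in fl/fl and -0.043 in +/+ cells. Each class had 1 pool of cells per condition, so the spread between animals is not known.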

How the results depend on the processing

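The median log2 fold of the members kept its direction under all alternatives run in 8 of the 9 comparisons. The exception was fl/fl over +/+ at 5 dpw, near 0, which was -0.01 with equal weight per cell and -0.02 in male cells. TMM factors gave medians of 1.70 (fl/fl, 3 dpw), 1.39 (fl/fl, 5 dpw), 1.89 (+/+, 3 dpw) and 1.81 (+/+, 5 dpw) over unwounded cells, and a limit of 5% mitochondrial UMIs gave -0.084 for 5 over 3 dpw in fl/fl cells. The 24 members past 1.5-fold at 5 dpw in fl/fl cells were 15 at 2-fold, where 1336 of 10045 genes were. Shares of all genes are not given for the other counts of this paragraph, which describe the members alone. The 2 members past 1.5-fold for 5 over 3 dpw in fl/fl cells became 0 at 2-fold and at 5% mitochondrial UMIs, 1 with members of at least 5 CPM alone, with TMM factors and without the highest Scrublet scores, and 4 at 20%. The 7 past it between unwounded genotypes became 2 at 2-fold, 4 with members of at least 5 CPM alone and from 2000 UMIs per cell, and 11 without the highest Scrublet scores. Of single members in that comparison, Gins3 turned to 0.0098 under the stricter hashtag rule, and Mcm10 to -0.60 under it and -0.086 from 2000 UMIs. The cause was not tested. Without the highest Scrublet scores the unwounded +/+ pool held no Mcm10 UMI, so its folds have no value there.

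Shares of cells depend on thinning by construction. Thinned to 2000 UMIs they were 11.0%, 35.2% and 30.3% in fl/fl cells that were unwounded, at 3 dpw and at 5 dpw, and 8.71%, 32.8% and 28.3% in +/+ cells. Not thinned they were 71.6%, 95.6% and 98.2% in fl/fl and 65.8%, 96.3% and 95.3% in +/+ cells. With at least 5 member UMIs they were 3.13%, 29.9% and 24.8% in fl/fl and 2.78%, 28.7% and 22.9% in +/+ cells. At 5 dpw the share was 46.2% in fl/fl cells at 5% mitochondrial UMIs and 44.1% in male +/+ cells.

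Limits are the single pool per condition, the different sort gates of unwounded and wounded cells, and the shallow unwounded cells. No paired analysis was run, since the labels give the pools no replicate numbers.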
